A study of Mus musculus with 16 samples.

Results

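The mouse genes for the replication-dependent histones were followed in 16 one-colour arrays of whole-lung RNA. Members were taken by name, as every gene whose array symbol started with Hist1h, Hist2h, Hist3h or Hist4h, or with H2ac, H2bc, H3c or H4c and a number. That gave 49 genes of the 20767 measured, read by 54 probes, and the brightest probe of each gene was used. There were 6 linker histone H1 genes, 14 H2A genes, 12 H2B genes, 8 H3 genes and 9 H4 genes. All mice were C57BL/6, 9 to 12 weeks old, and every mouse received a locked nucleic acid (LNA) oligonucleotide into the trachea. The LNA was either a control or LNA-miR-199a-5p, an inhibitor of the microRNA miR-199a-5p. It was given at 5 mg/kg, 4 and 2 days before and 4 days after bleomycin or phosphate-buffered saline (PBS). Bleomycin, a DNA-breaking drug that scars the lung, was instilled at 1 unit/kg. PBS with LNA-control had 3 arrays, PBS with LNA-miR-199a-5p had 3, bleomycin with LNA-control had 5 and bleomycin with LNA-miR-199a-5p had 5. No group was free of an oligonucleotide, and the labels state neither sex nor the day of collection. The labels do not say that replicates were separate animals, so p-values measure only the spread between these samples. The comparisons ask how the histone genes differ with injury and how blocking the microRNA alters that difference.

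Replication-dependent histones package newly copied DNA: H2A, H2B, H3 and H4 form the core that DNA wraps around, and H1 binds the linker between cores. Their genes lie in clusters, with many near-identical copies, and are transcribed mainly in S phase under the coactivator NPAT. Their main mRNAs end in a stem-loop bound by SLBP instead of a poly(A) tail, although some copies also make tailed mRNA in cells that have stopped dividing. In the adult lung, where most cells rest, they are known mainly from cells that re-enter division after injury. The oligonucleotide was directed at this microRNA, shown to identify the treatment, with its seed (bases 2 to 8) in capitals and its sequence from RefSeq.
mmu-miR-199a-5p: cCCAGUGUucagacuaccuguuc

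Some properties of the libraries bear on these genes. Values were log2 intensities from 4.615 to 18.324, and were taken as normalised between arrays because their sorted values nearly matched. Depth in reads does not exist for arrays, and the number of arrays limits precision. Members' means ran from 5.32 to 15.36, and 5 members lay below 5.739, the lowest quartile of gene means, where changes are measured against a dim signal. Arrays of 1 group correlated with each other at 0.984 or more. Lung markers were bright on every array, with array means of 15.41 to 15.74 over 6 genes, and 6 testis markers were dim, at 5.44 to 5.72. Replicates 1 and 4 of bleomycin with LNA-control stood apart: Rag1, a recombinase of immature lymphocytes, read 10.03 and 10.88 there and 5.43 to 6.10 on the other 14 arrays. Over the 11 thymocyte markers, array means ran from 7.04 to 9.25 in that group and from 7.06 to 7.32 in the others. Both arrays are labelled as whole lung. Among calls described gene by gene, those lost without them are named, and other lost calls are not named. RNA integrity numbers averaged 8.2 in the bleomycin group with LNA-control, 9.0 in the bleomycin group given the inhibitor, and 8.33 in both PBS groups. In whole lung, more cells in S phase and more histone mRNA per cell cannot be told apart.

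The histone genes differed with bleomycin under LNA-control mainly upwards, and were mainly lower with LNA-miR-199a-5p in bleomycin lungs. Bleomycin against PBS under LNA-control raised 18 of 49 members and lowered 2 (limma, Benjamini-Hochberg adjusted p under 0.05 over all genes), where 9.64% of all genes rose and 7.91% fell (17.5% in either direction). Among bleomycin lungs, those given LNA-miR-199a-5p had 29 members lower and 2 higher than those given LNA-control, where 11.5% of all genes fell and 13.5% rose (24.9% in either direction). Under LNA-miR-199a-5p, bleomycin against PBS raised 0 members and lowered 12 (limma), where 7.35% of all genes rose and 6.08% fell (13.4% in either direction). Every other setting tried also raised 0. At an unadjusted p under 0.05, 18 members passed there in either direction, where 6255 of all 20767 genes did. In PBS lungs, LNA-miR-199a-5p passed for 0 members, where 0.0482% of all genes passed (0.0337% higher and 0.0144% lower). The median member difference was 0.22, -0.39, -0.17 and 0.12 on the log2 scale in these 4 comparisons, beside medians of 0.00 to 0.01 over all genes. The first 2 comparisons share the bleomycin arrays with LNA-control, which enter them with opposite signs, so the rise in one and the fall in the other are not independent; the second comparison likewise shares the 5 injured arrays given the inhibitor with the one after it.

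**Figure D1:**
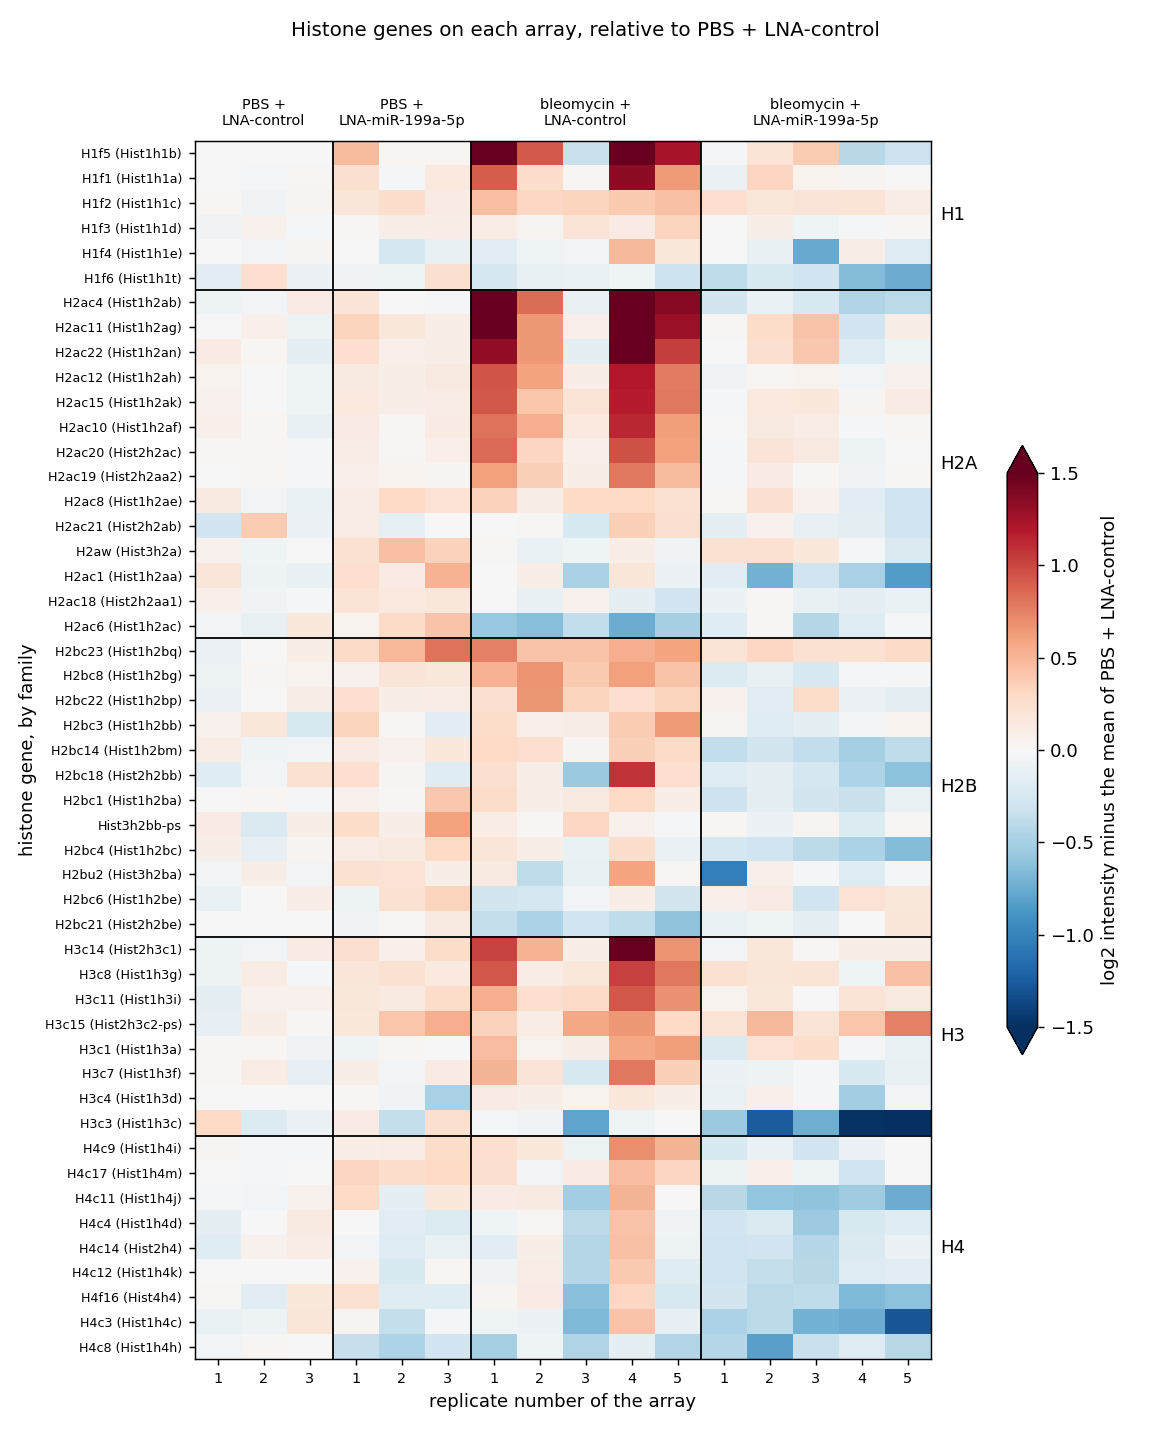
Log2 intensity of each of the 49 histone genes (lines of the map, by family) on each of the 16 arrays (columns, by group), as a difference from the gene's mean over the 3 arrays of PBS with LNA-control. The colour scale saturates at 1.5 in either direction; the darkest red lies among H2A genes and H1f5 on bleomycin replicates 1 and 4 of LNA-control, and the H4 genes are mostly blue with bleomycin and LNA-miR-199a-5p.

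Families did not share a single pattern. The median difference with bleomycin under LNA-control was 0.52 for H2A, 0.38 for H3, 0.28 for H1, 0.20 for H2B and -0.03 for H4. H2A had 8 of 14 genes higher and 1 lower, H1 had 3 of 6 higher, H3 had 3 of 8 higher, and H2B had 4 of 12 higher and 1 lower. No H4 gene of 9 passed in either direction. At an unadjusted p under 0.05, 3 of the 9 passed, where 6000 of all 20767 genes did. With LNA-miR-199a-5p in bleomycin lungs, family medians were -0.48 for H2A, -0.42 for H3, -0.36 for H2B, -0.29 for H4 and -0.28 for H1. There 10 H2A genes, 7 H2B genes, 5 H3 genes, 4 H4 genes and 3 H1 genes were lower, and 1 H2A and 1 H2B gene were higher. Under LNA-miR-199a-5p, bleomycin lowered 5 H2B genes (median -0.33), 3 H2A genes (median -0.12), 2 H4 genes (median -0.31), 1 H1 gene (median -0.06) and 1 H3 gene (median -0.03). The H4 genes thus lay near PBS values in injured lungs given LNA-control, and below them in injured lungs given LNA-miR-199a-5p. Differences between families were not tested, because the copies within a family may share signal at a probe.

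**Figure D2:**
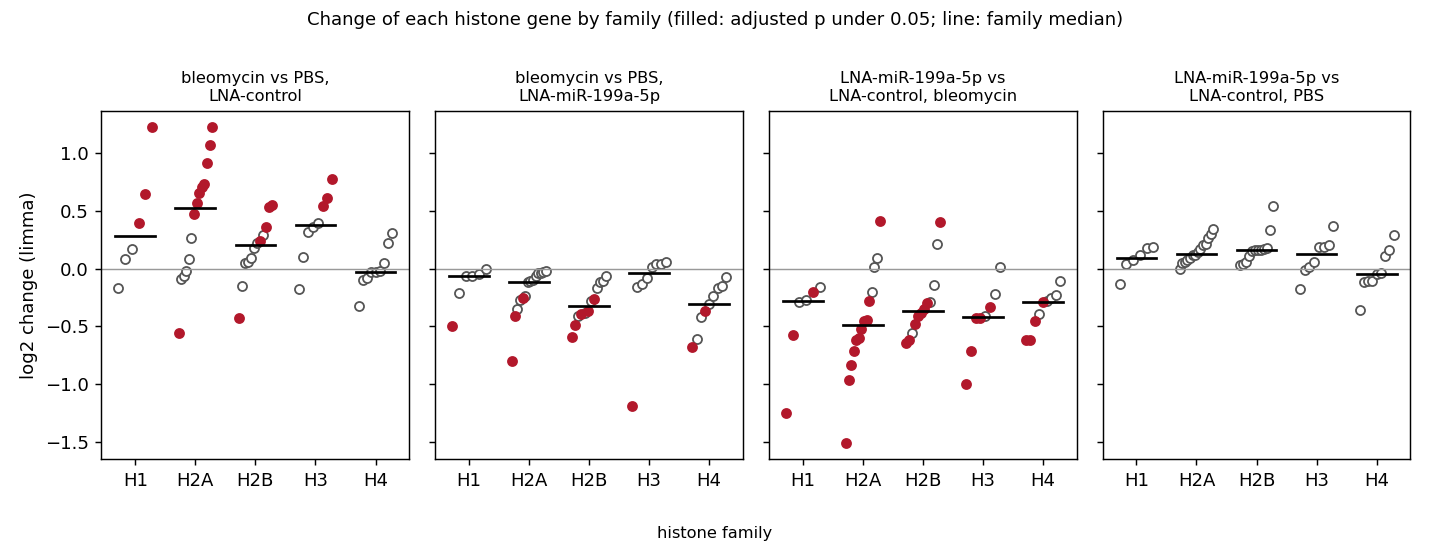
Limma log2 difference of each histone gene (points) by family in 4 comparisons, with filled points for an adjusted p under 0.05 and a line at each family's median. In bleomycin against PBS with LNA-control the medians run from -0.03 (H4) to 0.52 (H2A); in LNA-miR-199a-5p against LNA-control with PBS no point is filled.

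Bleomycin with LNA-control was set against PBS with LNA-control to ask what injury does to these genes. H2ac4 (Hist1h2ab), an H2A copy, rose the most together with H1f5 (Hist1h1b), a linker histone of dividing cells. On the arrays of PBS with LNA-control, H2ac4 read 11.46, 11.49 and 11.66. With bleomycin it read 13.10, 12.37, 11.42, 14.00 and 12.90, so that 4 arrays were above every PBS array and replicate 3 was below them. The limma difference was 1.22 ± 0.36 (SE), 2.33-fold (adjusted p = 0.0246). H1f5 read 9.30, 9.29 and 9.30 with PBS, and 11.18, 10.22, 8.96, 11.68 and 10.53 with bleomycin. Again replicate 3 lay below the PBS arrays and the other 4 above them, and the difference was 1.22 ± 0.41 (adjusted p = 0.049). The H1f5 call held only when replicate 3 was the array left out, and was lost without any other single array of the 16 (adjusted p between 0.0518 and 0.133). The H2ac4 call was lost without replicate 1 or 5 of that group, or without any 1 of the 3 PBS arrays with LNA-control (adjusted p between 0.0514 and 0.0805). Without replicates 1 and 4 together, H2ac4 differed by 0.70 (adjusted p = 0.1) and H1f5 by 0.61 (adjusted p = 0.263).

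The other H2A genes that rose belong to copies whose probes were bright on every array. H2ac11 (Hist1h2ag) went from 14.32 ± 0.07 (SD, n = 3) to 15.38 ± 0.70 (n = 5), a difference of 1.07. H2ac12 (Hist1h2ah) went from 15.04 ± 0.06 to 15.77 ± 0.41 and H2ac15 (Hist1h2ak) from 15.09 ± 0.07 to 15.80 ± 0.39. Differences for H2ac10 (Hist1h2af), H2ac20 (Hist2h2ac) and H2ac19 (Hist2h2aa2) were 0.65, 0.57 and 0.47. In these 6 genes all 5 bleomycin arrays lay above all 3 PBS arrays, and adjusted p-values were between 0.00409 and 0.0139. H2ac22, described below with its neighbour, also rose. The spread of the 6 genes was several times wider with bleomycin than with PBS. Among H3 genes, H3c14 (Hist2h3c1) read 8.72, 8.75 and 8.92 with PBS and 9.81, 9.32, 8.89, 10.35 and 9.47 with bleomycin, a difference of 0.77 ± 0.21 (adjusted p = 0.0181), with replicate 3 inside the PBS range. H3c11 (Hist1h3i), another H3 copy, rose by 0.54 (adjusted p = 0.00558). Of the 6 H2A genes, H2ac10, H2ac12, H2ac15 and H2ac19 passed also without replicates 1 and 4, at differences of 0.31 to 0.49, and H2ac11 and H2ac20 did not (adjusted p = 0.0855 and 0.0777). H2ac11 and H2ac20 also lost their calls without PBS replicate 3 (adjusted p = 0.0611 and 0.0576), and H3c14 without PBS replicate 1 or 2 (adjusted p = 0.0671 and 0.0689).

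Smaller rises with little spread were seen in H2bc8, H2bc23 and H1f2. H2bc8 (Hist1h2bg), an H2B copy read by a dim probe, was 6.20, 6.31 and 6.33 with PBS and 6.80, 6.95, 6.67, 6.90 and 6.71 with bleomycin. The groups did not overlap, and the difference was 0.53 ± 0.08 (adjusted p = 0.00024), or 0.50 without replicates 1 and 4 (adjusted p = 0.00336). H1f2 (Hist1h1c), a linker histone that many resting cells also make, was 12.27, 12.20 and 12.29 with PBS and 12.71, 12.56, 12.59, 12.65 and 12.69 with bleomycin. It rose by 0.39 ± 0.06 (adjusted p = 0.000506) with no overlap, and by 0.36 without replicates 1 and 4 (adjusted p = 0.00668). H2bc23 (Hist1h2bq) was 5.47, 5.56 and 5.65 with PBS and 6.31, 5.99, 5.99, 6.11 and 6.15 with bleomycin, a rise of 0.55 ± 0.10 (adjusted p = 0.00119). H2bc22 (Hist1h2bp) rose by 0.36 (adjusted p = 0.0298), a call lost without replicate 2, its highest array, or without any 1 PBS array with LNA-control (adjusted p between 0.0508 and 0.127).

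H2bc21 and H2ac6 went the other way. H2bc21 (Hist2h2be), an H2B copy known to be made outside S phase too, read 8.50, 8.49 and 8.48 with PBS and 8.13, 8.01, 8.19, 8.11 and 7.89 with bleomycin. All 5 bleomycin arrays were below all 3 PBS arrays, and it fell by 0.43 ± 0.08 (adjusted p = 0.00209). H2ac6 (Hist1h2ac) read 6.98, 6.91 and 7.19 with PBS and 6.46, 6.39, 6.66, 6.28 and 6.53 with bleomycin, without overlap, and fell by 0.56 ± 0.12 (adjusted p = 0.00275). Both calls held without each single array and without replicates 1 and 4. Over all members, 17 lay wholly above and 3 wholly below the PBS arrays, where 14.0% and 11.4% of all genes did. Of the 20 called, 12 remained without replicates 1 and 4 (10 higher and 2 lower), and 13, 12 and 11 members passed without PBS replicate 1, 2 and 3 in turn. Over all genes, 3644 passed with every array and 2261 without replicates 1 and 4. Without PBS replicate 1, 2 and 3 in turn, 2757, 2575 and 2291 of all genes passed.

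**Figure D3:**
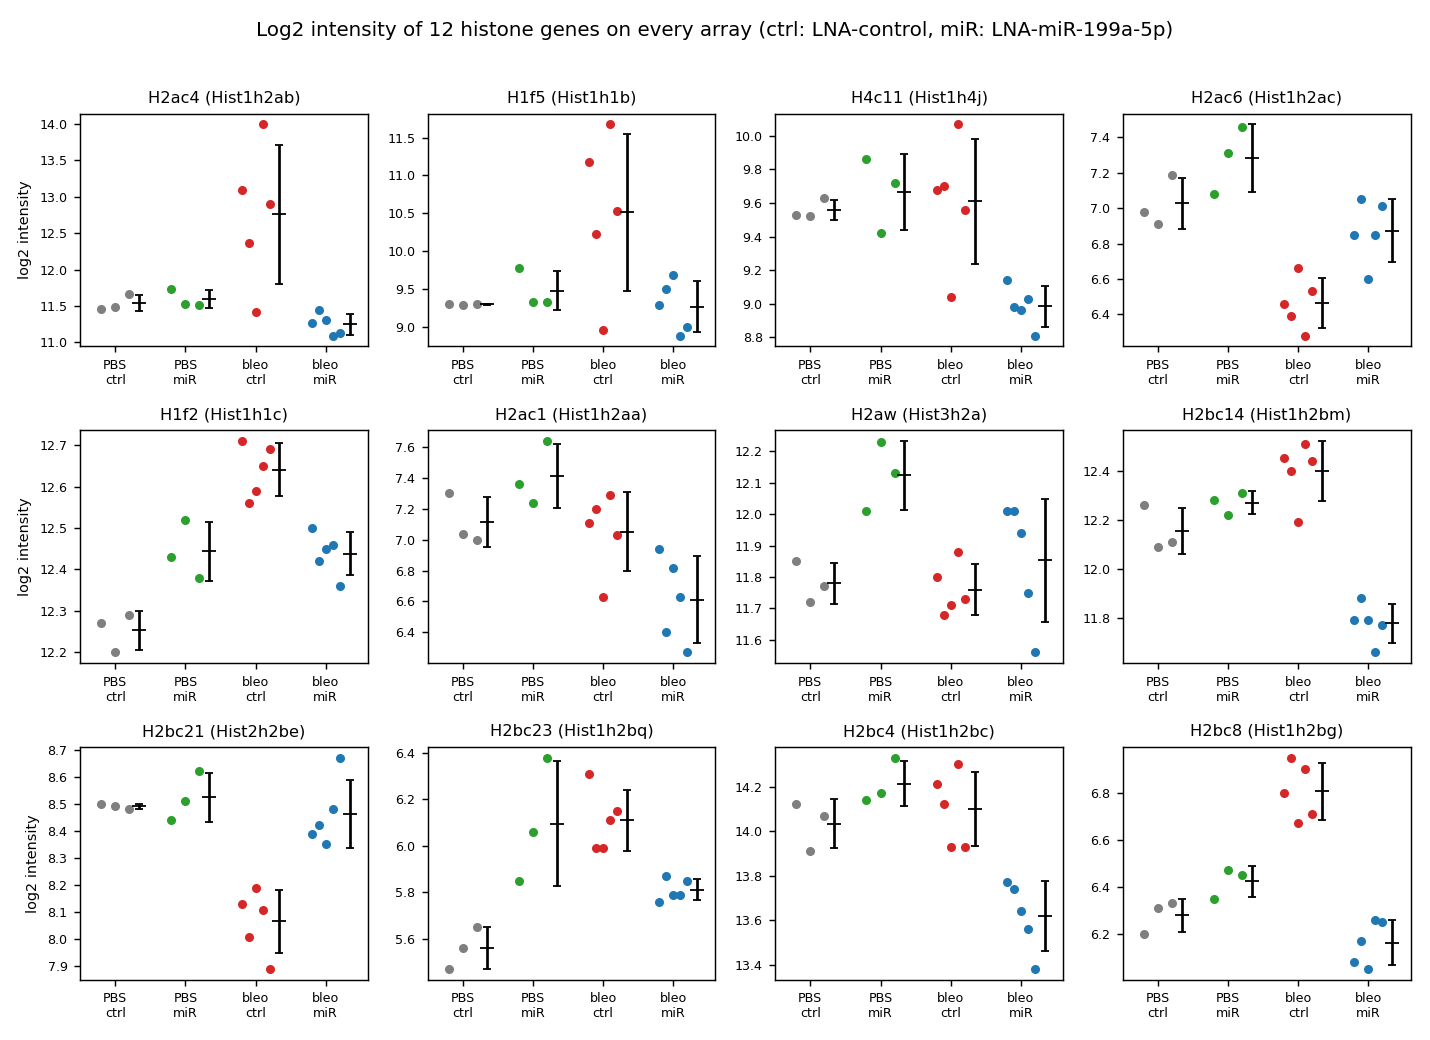
Log2 intensity of 12 histone genes on every array (points, left to right by replicate number), with the group mean and SD beside each group; n = 3 for PBS and 5 for bleomycin groups. H2bc8 lies between 6.67 and 6.95 with bleomycin and LNA-control, above all other arrays, whereas H2bc21 lies between 7.89 and 8.19, below all of them; H2ac4 spreads from 11.42 to 14.00.

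LNA-miR-199a-5p was set against LNA-control in bleomycin lungs to ask what blocking the microRNA does during injury. Again H2ac4 and H1f5 had the largest differences, and H2bc8 and H2bc14 the smallest p-values. H2ac4 was 11.26, 11.44, 11.30, 11.09 and 11.13 with LNA-miR-199a-5p, against the 11.42 to 14.00 above. It fell by 1.51 ± 0.31, or 2.86-fold (adjusted p = 0.0023), and by 0.99 without replicates 1 and 4 of LNA-control (adjusted p = 0.0128). H1f5 was 9.28, 9.50, 9.68, 8.88 and 8.99, and fell by 1.25 ± 0.35 (adjusted p = 0.0168). Its difference without those arrays was -0.64 (adjusted p = 0.159). The bright H2A copies lay near their PBS values: H2ac12 was 15.05 ± 0.06 (SD, n = 5), beside 15.04 ± 0.06 (n = 3) with PBS and LNA-control. Differences were -0.96 for H2ac11, -0.71 for H2ac12, -0.62 for H2ac15, -0.60 for H2ac10, -0.52 for H2ac20 and -0.45 for H2ac19, all called. Without replicates 1 and 4 of LNA-control, H2ac12, H2ac15, H2ac10 and H2ac19 were still called, at -0.48 to -0.29. H2ac11 (-0.56, adjusted p = 0.0991) and H2ac20 (-0.29, adjusted p = 0.0844) were not. Within the H3 genes, H3c3 fell by 1.0 (adjusted p = 0.00483), H3c14 by 0.71 (adjusted p = 0.0109) and H3c11 by 0.43 (adjusted p = 0.0089). None of these H3 genes was called without those arrays, at -0.9 (adjusted p = 0.0501), -0.36 (adjusted p = 0.0533) and -0.29 (adjusted p = 0.0712).

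H2bc8 read 6.08, 6.17, 6.05, 6.26 and 6.25 with LNA-miR-199a-5p and bleomycin, below all 5 arrays of LNA-control. It fell by 0.64 ± 0.07 (adjusted p = 1.38e-05), and by 0.62 without replicates 1 and 4 (adjusted p = 0.000529). H2bc14 (Hist1h2bm), also an H2B copy, was 12.45, 12.40, 12.19, 12.51 and 12.44 with LNA-control and 11.79, 11.88, 11.79, 11.66 and 11.77 with LNA-miR-199a-5p. It fell by 0.62 ± 0.07 without overlap (adjusted p = 1.55e-05), and by 0.57 without replicates 1 and 4 (adjusted p = 0.000604). H2bc4 (Hist1h2bc), a copy that can make tailed mRNA, was 14.21, 14.12, 13.93, 14.30 and 13.93 with LNA-control and 13.77, 13.74, 13.64, 13.56 and 13.38 with LNA-miR-199a-5p. It fell by 0.48 ± 0.09 (adjusted p = 0.00155), again with no overlap, and by 0.37 without replicates 1 and 4 (adjusted p = 0.0254). H2bc23 fell by 0.30 (adjusted p = 0.0219), a call lost without replicate 1 or 5 of LNA-control (adjusted p between 0.0504 and 0.0634) and without replicates 1 and 4 together (-0.23, adjusted p = 0.152). H4c11 (Hist1h4j), which encodes the same H4 protein as its copies, was 9.68, 9.70, 9.04, 10.07 and 9.56 with LNA-control and 9.14, 8.98, 8.96, 9.03 and 8.81 with LNA-miR-199a-5p. It fell by 0.62 ± 0.14 (adjusted p = 0.0046), overlapping only through replicate 3 of LNA-control, and by 0.45 without replicates 1 and 4 (adjusted p = 0.049). H4c9 (Hist1h4i) fell by 0.45 (adjusted p = 0.00839) and H4c17 (Hist1h4m) by 0.29 (adjusted p = 0.0235), the latter lost without replicate 4 or 5 of LNA-control or replicate 4 of LNA-miR-199a-5p (adjusted p between 0.0598 and 0.0681). Neither H4c9 (-0.34, adjusted p = 0.0609) nor H4c17 (-0.21, adjusted p = 0.174) was called without replicates 1 and 4 together.

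H2bc21 and H2ac6 were the 2 members that rose. H2bc21 read 8.39, 8.42, 8.35, 8.48 and 8.67 with LNA-miR-199a-5p, above all 5 arrays of LNA-control, and rose by 0.40 ± 0.07 (adjusted p = 0.00119). H2ac6 read 6.85, 7.05, 6.60, 6.85 and 7.01, overlapping LNA-control only at replicate 3 of each group, and rose by 0.41 ± 0.10 (adjusted p = 0.00805). Without replicates 1 and 4 of LNA-control, the differences were 0.43 (adjusted p = 0.00699) and 0.34 (adjusted p = 0.0747). Over all members, 11 lay wholly below and 1 wholly above the LNA-control arrays, where 6.48% and 7.31% of all genes did. Without replicates 1 and 4, 11 of the 29 lower and 1 of the 2 higher calls remained, and the median member difference was -0.25. With the RNA integrity number as a covariate, 16 were lower and 2 higher. Over all genes, 5176 calls became 2350 without those 2 arrays and 2977 with that covariate. The parts that thymocyte transcripts and RNA integrity play in the larger count of members were not otherwise tested.

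Bleomycin was also compared with PBS under LNA-miR-199a-5p. Here 12 members fell and none rose, and 2 of these 12, H2bc8 and H2bc14, are among the 18 that rose under LNA-control. H2ac1 (Hist1h2aa), a testis form of H2A, was 7.36, 7.24 and 7.64 with PBS and 6.94, 6.40, 6.82, 6.63 and 6.27 with bleomycin, and fell by 0.80 ± 0.16 without overlap (adjusted p = 0.00824). H2bc4 was 14.14, 14.17 and 14.33 with PBS, above every bleomycin array, and fell by 0.59 ± 0.11 (adjusted p = 0.00599). H2bc14 was 12.28, 12.22 and 12.31 with PBS, again above every bleomycin array, and fell by 0.49 ± 0.08 (adjusted p = 0.00349). H4c11 was 9.86, 9.42 and 9.72 with PBS and fell by 0.68 ± 0.16 (adjusted p = 0.0157), a call lost without PBS replicate 1 or 3 (adjusted p between 0.0542 and 0.068). The same genes under LNA-control differed by -0.06, 0.06, 0.24 and 0.05, of which that of H2bc14 passed (adjusted p = 0.0404, in 8 of 16 fits that each left out 1 array). Without replicates 1 and 4 of bleomycin with LNA-control, that H2bc14 call was lost (0.19, adjusted p = 0.207).

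The largest fall under LNA-miR-199a-5p was that of H3c3 (Hist1h3c), an H3 copy. It read 10.48, 10.00 and 10.60 with PBS and 9.80, 9.11, 9.62, 8.87 and 8.46 with bleomycin, and fell by 1.19 ± 0.26, or 2.29-fold (adjusted p = 0.0118). Under LNA-control it read 10.65, 10.15 and 10.27 with PBS and 10.34, 10.30, 9.56, 10.29 and 10.35 with bleomycin, a difference of -0.18 that did not pass. H1f6 (Hist1h1t), the testis linker histone, fell by 0.50 (adjusted p = 0.0199) and H2bc1 (Hist1h2ba), the testis H2B, by 0.39 (adjusted p = 0.0143). The H2bc1 probe was bright, with a mean of 12.1 over the 16 arrays, and which copies it reads was not tested. H2ac6 fell by 0.41 (adjusted p = 0.031) and H4c17 by 0.37 (adjusted p = 0.0268). H2bc8 fell by 0.26 (adjusted p = 0.0397), a call lost without replicates 1 and 4 of bleomycin with LNA-control (adjusted p = 0.0547). These 5 calls rest on PBS replicate 3 of LNA-miR-199a-5p among other arrays: without it H1f6 had an adjusted p of 0.09 and H2bc1 of 0.077, and the other 3 were called in 12, 12 and 8 of 16 fits that each left out 1 array. In all, 18 members lay wholly below the PBS arrays and 0 wholly above, where 10.2% and 10.6% of all genes did. The count of 12 became 4 once PBS replicate 3 of LNA-miR-199a-5p was left out, whose values for H2bc4, H2ac1 and H2bc23 were the highest of its group. It was also 4 when only the 8 arrays compared entered the fit. Over all genes, 1184 passed in the first of these settings and 274 in the second, instead of 2789.

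In PBS lungs LNA-miR-199a-5p left no member past the threshold, with 0 of 49 called by limma, 7 at an unadjusted p under 0.05, 3 called with array weights, and 0 in the other settings tried. Over all genes, 1518 of 20767 had an unadjusted p under 0.05, and 392 were called with array weights. The smallest p was that of H2bc23, which read 5.85, 6.06 and 6.38 with LNA-miR-199a-5p, above the 5.47 to 5.65 of LNA-control. Its difference of 0.54 ± 0.11 (adjusted p = 0.146) was close in size to that with bleomycin under LNA-control. H2aw (Hist3h2a), an H2A gene outside the large cluster, read 11.85, 11.72 and 11.77 with LNA-control and 12.01, 12.23 and 12.13 with LNA-miR-199a-5p. Its difference was 0.34 ± 0.11 (adjusted p = 0.468). H1f2 read 12.43, 12.52 and 12.38 with LNA-miR-199a-5p, also without overlap, at a difference of 0.19 (adjusted p = 0.573). Although none passed, 18 members lay wholly above and 1 wholly below the LNA-control arrays, where 10.2% and 7.88% of all genes did.

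The interaction asked directly whether the bleomycin difference under LNA-miR-199a-5p was unlike that under LNA-control. It was called for 10 members, all with a more negative difference under LNA-miR-199a-5p. Of all genes, 3.95% were called downwards and 3.08% upwards (7.04% in all), and the median over members was -0.51. A negative interaction need not be a smaller difference: H2bc14 differed by 0.24 under LNA-control and -0.49 under LNA-miR-199a-5p, and H2bc4 by 0.06 and -0.59. Of the 10 members, 6 were H2B genes. H2bc23 had an interaction of -0.84 ± 0.14 (adjusted p = 0.00352), H2bc8 of -0.79 ± 0.11 (adjusted p = 0.000868) and H2bc14 of -0.74 ± 0.11 (adjusted p = 0.00122). These 3 held without each single array and without replicates 1 and 4 of bleomycin with LNA-control. H2bc4 (-0.66), H2bc1 (-0.57) and H2bc22 (-0.54) were the other H2B genes, and H2ac12 (-0.84), H3c11 (-0.62), H4c17 (-0.59) and H1f2 (-0.39) came from the other families. For H2bc23 the interaction combines a difference with LNA-miR-199a-5p of 0.54 in PBS lungs and of -0.30 in bleomycin lungs. Of the other 7, H2bc1 held in all 16 fits that left out 1 array, H2bc4 in 15, H1f2 in 14, H4c17 in 12, H2ac12 in 6, H2bc22 in 3 and H3c11 in 2. H2ac4 and H1f5, whose differences were wider, had interactions of -1.57 ± 0.50 (adjusted p = 0.0715) and -1.43 ± 0.57 (adjusted p = 0.148) and did not pass. The count was 26 when bleomycin replicate 3 of LNA-control was left out, 3 without replicates 1 and 4 of that group, 6, 4 and 6 without PBS replicate 1, 2 or 3 of LNA-control, and 6 without PBS replicate 1 or 2 of LNA-miR-199a-5p. Over all genes it was 1461 in the main fit, 2212 without bleomycin replicate 3 and 524 without replicates 1 and 4. In the fits without 1 of these PBS arrays it ran from 634 to 842 over all genes.

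With bleomycin and LNA-control, many members had their highest and lowest values on the same arrays. Of the 18 genes that rose, which were picked from these same arrays, 14 were highest on replicate 4 and 14 were lowest on replicate 3. Of all 49, 35 were highest on replicate 4 and 28 lowest on replicate 3. These counts were 11 and 10 of 14 for H2A, and 6 and 5 of 12 for H2B. The same counts were not made over all genes, so whether they are particular to histone genes is not known. The median H2A difference from PBS was 0.72, 0.34, 0.07, 0.87 and 0.55 on replicates 1 to 5, and that of H4 was -0.06, 0.08, -0.44, 0.43 and -0.07. Both families thus took their lowest value on replicate 3 and their highest on replicate 4, with H4 lower throughout. The median over 31 S phase genes was 0.65, 0.33, 0.10, 0.75 and 0.65 on the same arrays, and 26 of the 31 were lowest on replicate 3. The median over the 11 thymocyte markers was 1.15 on replicate 1, 1.82 on replicate 4 and -0.06 to 0.00 on the other 3. On replicate 5, where H2ac4 read 12.90, Rag1 read 6.00 and Dntt, a polymerase of immature lymphocytes, read 7.35. That was the highest Dntt value of the 14 arrays other than replicates 1 and 4, and the part of thymocyte transcripts in these histone values was not tested. With bleomycin and LNA-miR-199a-5p, median H2A differences ran from -0.13 to 0.13 and median H4 differences from -0.41 to -0.19. The H4 median ran from -0.03 to 0.07 on the arrays of PBS with LNA-control, below which all 5 of these arrays lay. It ran from -0.19 to 0.06 on PBS arrays given the inhibitor, whose lowest value equalled the highest of the 5.

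**Figure D4:**
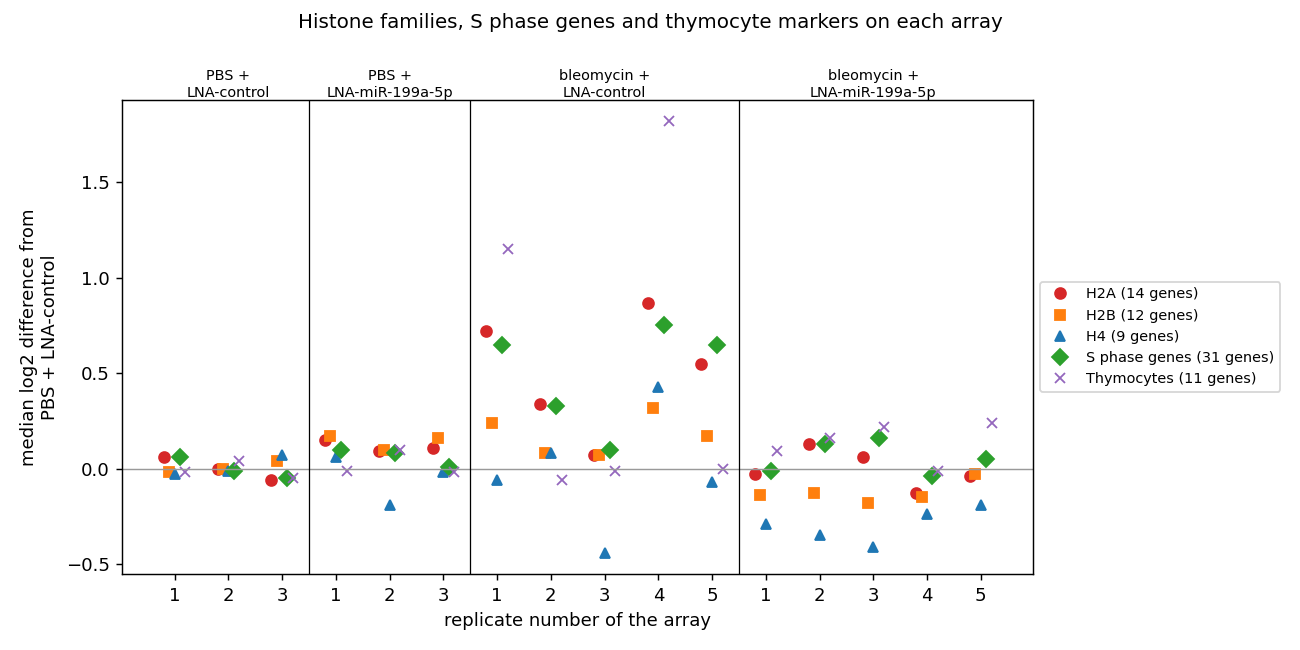
Median log2 difference from the mean of PBS with LNA-control on each array for H2A, H2B and H4 genes, 31 S phase genes and 11 thymocyte markers. With bleomycin and LNA-control, H2A runs from 0.07 to 0.87 and S phase genes from 0.10 to 0.75 in nearly the same order, while thymocyte markers reach 1.15 on replicate 1 and 1.82 on replicate 4.

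Other genes of DNA replication were described from lists chosen with earlier results of these data in view. Values follow for bleomycin under LNA-control and then for LNA-miR-199a-5p in bleomycin lungs. Bleomycin under LNA-control raised 17 of 31 S phase genes and lowered 0 (median 0.46), and LNA-miR-199a-5p in bleomycin lungs lowered 23 and raised 0 (median -0.54). Ccna2, the cyclin of S phase, rose by 1.81 and fell by 1.30; Tk1, thymidine kinase, rose by 1.45 and fell by 1.03. The 11 mitotic genes had 9 higher (median 1.74) and 9 lower (median -1.21). Under LNA-miR-199a-5p, bleomycin lowered 1 S phase gene and raised 0, and called no mitotic gene, whereas it lowered 12 of the 49 histone genes. That histone count was 4 without PBS replicate 3 of LNA-miR-199a-5p, with only the compared arrays fitted, or with replicate number as a block. Over all genes, 2789 calls became 1184, 274 and 663 in these settings. Of 13 chaperones that carry histones to new DNA, 6 rose and 1 fell with bleomycin under LNA-control (median 0.32), and 1 rose and 6 fell with LNA-miR-199a-5p in bleomycin lungs (median -0.29). Asf1b, a chaperone of H3 and H4 in dividing cells, rose by 1.31 and fell by 0.72, and Chaf1b, a subunit of the assembly factor CAF-1, rose by 0.78 and fell by 0.92. Asf1a, a related chaperone, fell in both, by 0.44 and 0.68. With LNA-miR-199a-5p in PBS lungs Asf1a differed by -0.71, which did not pass (limma, adjusted p = 0.0751). In a fit without replicates 1 and 4 of bleomycin with LNA-control, added after the data were seen, 12 S phase genes rose (median 0.31), and 10 fell and 1 rose with LNA-miR-199a-5p in bleomycin lungs (median -0.37). Mitotic genes then had 9 higher (median 1.34) and 6 lower (median -0.85). Of the chaperones, 4 rose and 1 fell (median 0.32), and then 1 rose and 2 fell (median -0.17). Of the genes named here, Asf1b lost its call for the fall (-0.48, adjusted p = 0.113).

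Among 10 histones made outside replication, 5 rose with bleomycin under LNA-control (median 0.25) and 3 fell with LNA-miR-199a-5p in bleomycin lungs (median -0.12). H2ax, which marks DNA breaks, rose by 0.75 and fell by 0.73, and H2aj rose by 0.51 and fell by 0.49. H2az1 rose by 0.32 and fell by 0.28, and Cenpa, the H3 of centromeres, rose by 0.86. When replicates 1 and 4 were left out, H2aj was the 1 riser and the 1 that fell (medians 0.20 and -0.15), at 0.36 and -0.34. H2ax was then at 0.51 and -0.49, H2az1 at 0.22 and -0.19 and Cenpa at 0.61, none of them called. Of the 18 genes for histone mRNA synthesis and end processing, 1 rose and 1 fell with bleomycin (median 0.06), and none passed with LNA-miR-199a-5p in bleomycin lungs (median 0.01). The riser was Zfp473, a U7 complex partner (0.37, adjusted p = 0.0159, and 0.29, adjusted p = 0.115, without replicates 1 and 4), and the one that fell was Pou2f1, the octamer-binding factor (-0.53, adjusted p = 0.00203), also without those arrays (-0.47, adjusted p = 0.0209). Slbp, the stem-loop binding protein, differed by 0.32 (adjusted p = 0.143), and Npat by -0.12 (adjusted p = 0.459).

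Markers of other cells moved with the same groups. Of 7 macrophage markers, 6 rose with bleomycin under LNA-control, and 6 fell and 1 rose with LNA-miR-199a-5p in bleomycin lungs, with array means of 11.58 to 12.08 in bleomycin with LNA-control and 10.47 to 10.51 with LNA-miR-199a-5p. Of 4 B cell markers, 2 fell and 3 rose in these comparisons. Of 10 erythroid markers, 0 passed with bleomycin (limma) and 4 rose with LNA-miR-199a-5p in bleomycin lungs, and of 6 lung markers 1 fell and 2 rose. Brown fat (3 markers) had 0 and then 1 higher, at medians of 1.04 and 0.94. In squamous epithelium (3 markers), thymocytes (11) and testis (6), limma called 0 in either comparison, with medians of 1.03 and 1.34, of 0.51 and -0.45, and of -0.02 and 0.00. Array means over the squamous markers ran from 11.77 to 13.04 in bleomycin with LNA-control and from 13.37 to 14.41 with LNA-miR-199a-5p, without overlap. With replicates 1 and 4 left out, macrophage counts were the same, B cells had 1 lower and 2 higher, erythroid markers 0 and 2 higher, lung markers 1 lower and 1 higher, brown fat 0 called in both, and thymocytes medians of 0.03 and 0.06 with 0 and 1 higher. The part of each cell type in the histone values was not tested. Beside H1f6, H2ac1 and H2bc1, all known from testis, the testis markers stayed near the bottom of the scale on every array.

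Many H2A and H2B genes sit head to head in close pairs. Of the members, 6 H2A and H2B combinations lay within 1000 bases of each other, and in some of them the members differed in direction. H2ac20 and H2bc21, on chromosome 3 with 191 bases between them, moved in opposite directions: with bleomycin under LNA-control H2ac20 rose by 0.57 and H2bc21 fell by 0.43, and with LNA-miR-199a-5p in bleomycin lungs H2ac20 fell by 0.52 and H2bc21 rose by 0.40. H2ac6 and H2bc4, on chromosome 13 with 239 bases between them, differed by -0.56 and 0.06 with bleomycin under LNA-control and by 0.41 and -0.48 with LNA-miR-199a-5p in bleomycin lungs. Under LNA-miR-199a-5p, however, bleomycin lowered both, by 0.41 and 0.59. H2ac8 (Hist1h2ae) and H2bc8, with 179 bases between them, kept 1 direction, at 0.26 and 0.53 with bleomycin, of which the second passed, and -0.28 and -0.64 with LNA-miR-199a-5p, both called. The H2ac8 call was made in 10 of 16 fits that each left out 1 array, and was lost without replicates 1 and 4 of LNA-control (-0.24, adjusted p = 0.178). H2ac22 (Hist1h2an) and H2bc22, with 234 bases between them, rose by 0.91 and 0.36 and fell by 0.83 and 0.38. The H2ac22 calls were made in 10 and 14 of the 16 fits and were lost without replicates 1 and 4 (0.52, adjusted p = 0.174, and -0.44, adjusted p = 0.175), where H2bc22 was called in both. H2ac1 and H2bc1, the testis pair with 280 bases between them, did not pass with bleomycin (-0.06 and 0.18) and fell by 0.44 and 0.41 with LNA-miR-199a-5p. The H2ac1 fall was called in 9 of the 16 fits and was lost without replicates 1 and 4 (-0.34, adjusted p = 0.198), where H2bc1 was still called. H2ac21 (Hist2h2ab), 717 bases from H2bc21, differed by 0.08 and -0.20 and did not pass. H2ac8, H2ac21 and H2ac22 are named here for their position.

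**Figure D5:**
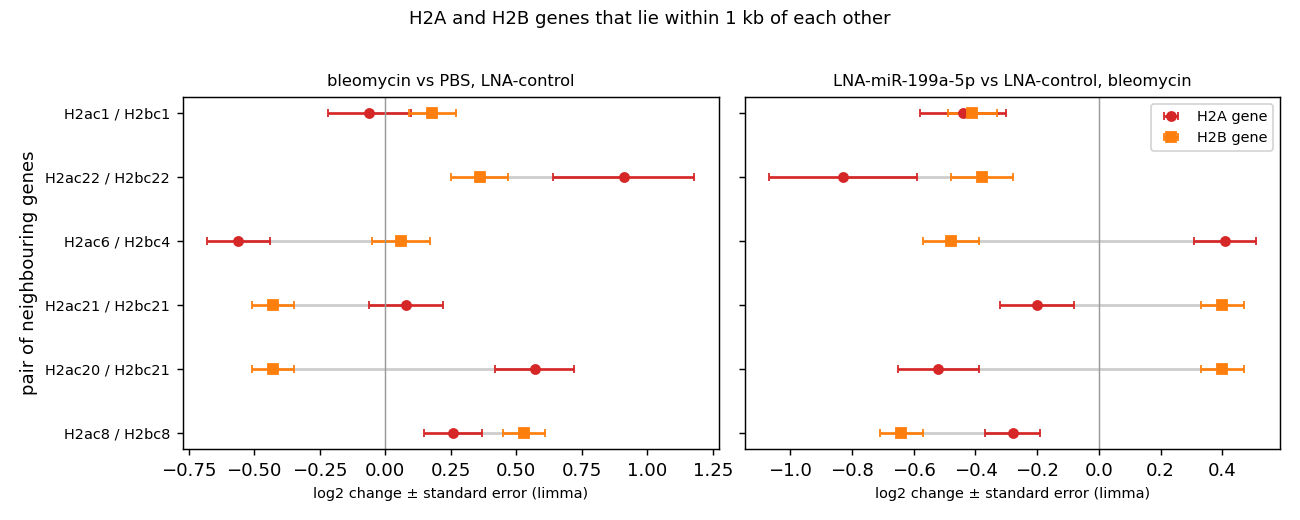
Limma log2 difference with its standard error for the H2A gene (circle) and the H2B gene (square) of 6 combinations that lie within 1000 bases of each other, with bleomycin against PBS under LNA-control (left) and LNA-miR-199a-5p against LNA-control in bleomycin lungs (right). H2ac20 and H2bc21 lie on opposite sides of 0 in both, at 0.57 and -0.43 and at -0.52 and 0.40.

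Promoter sequences are shown for 5 genes with different behaviour, 250 bases before to 50 after the start, from RefSeq on GRCm38.p6. They are 3 H2A starts (H2ac4, which rose; H2ac20 and H2ac6, whose directions differ from their H2B neighbours), 1 H2B start (H2bc8) and 1 H4 start (H4c11). Capitals mark 3 promoter elements on either strand. The first is the TATA box, searched as TATAAA. The second is the CCAAT box. The third is the octamer known from H2B promoters, searched as ATTTGCAT.
H2ac4 (chr13:23750838-23751137, + strand): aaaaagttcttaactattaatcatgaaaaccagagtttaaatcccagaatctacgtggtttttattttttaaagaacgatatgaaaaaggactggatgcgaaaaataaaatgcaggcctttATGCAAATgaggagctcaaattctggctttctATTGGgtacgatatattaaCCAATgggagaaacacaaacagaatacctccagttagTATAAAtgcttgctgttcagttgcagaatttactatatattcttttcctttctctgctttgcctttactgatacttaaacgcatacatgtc
H2ac20 (chr3:96220831-96221130, - strand): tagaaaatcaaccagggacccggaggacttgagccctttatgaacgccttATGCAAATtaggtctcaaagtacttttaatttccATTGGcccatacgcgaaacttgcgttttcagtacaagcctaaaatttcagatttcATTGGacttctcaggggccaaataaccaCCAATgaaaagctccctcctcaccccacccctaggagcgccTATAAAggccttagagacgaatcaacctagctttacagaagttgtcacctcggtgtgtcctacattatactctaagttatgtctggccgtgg
H2ac6 (chr13:23683910-23684209, - strand): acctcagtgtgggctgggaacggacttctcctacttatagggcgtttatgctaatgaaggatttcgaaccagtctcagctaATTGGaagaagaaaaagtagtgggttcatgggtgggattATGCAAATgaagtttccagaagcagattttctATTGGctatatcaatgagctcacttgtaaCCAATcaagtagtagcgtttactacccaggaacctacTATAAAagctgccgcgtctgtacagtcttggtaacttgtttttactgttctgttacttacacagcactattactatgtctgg
H2bc8 (chr13:23571150-23571449, + strand): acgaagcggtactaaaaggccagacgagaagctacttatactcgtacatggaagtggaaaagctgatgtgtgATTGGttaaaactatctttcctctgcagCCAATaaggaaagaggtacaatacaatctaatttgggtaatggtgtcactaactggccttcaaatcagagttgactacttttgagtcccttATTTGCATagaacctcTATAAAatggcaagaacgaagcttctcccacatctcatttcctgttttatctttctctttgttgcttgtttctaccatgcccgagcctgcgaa
H4c11 (chr13:21734784-21735083, + strand): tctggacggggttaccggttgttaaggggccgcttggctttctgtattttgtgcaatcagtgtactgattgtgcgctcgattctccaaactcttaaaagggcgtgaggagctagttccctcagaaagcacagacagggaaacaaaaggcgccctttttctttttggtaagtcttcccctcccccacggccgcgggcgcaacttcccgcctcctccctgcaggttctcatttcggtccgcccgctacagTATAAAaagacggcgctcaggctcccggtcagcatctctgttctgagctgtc

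Of the 49 members, 43 matched a RefSeq promoter, with 44 windows in all. TATAAA was found in 26 of 44 (59.1%), against 13.6% of 32851 mouse promoters of the same length. CCAAT was found in 38 of 44 (86.4%, against 37.4%): in each of the H1, H2A, H2B and H3 windows and in 2 of 8 for H4. ATTTGCAT was found in 13 of 44 (29.5%, against 1.74%), namely in 7 of 14 H2A windows, 6 of 10 H2B windows and none of the H1, H3 and H4 windows. CCAAT was thus rare only in the H4 windows. The windows of the other families held it for genes that rose, fell or were not called with bleomycin under LNA-control. A link between CCAAT and these differences was not tested. H2ac6, which fell, and H2ac4 and H2ac20, which rose, hold all 3 elements, so their presence did not go with direction in these 3. Windows of neighbours overlap and share matches, and a match is a run of letters, not a measured site.

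Probes of a single gene can disagree, which limits what is said about single copies. Of the 5 members with 2 probes, H2ac15 had differences of 0.70 and 1.09 with bleomycin under LNA-control, and -0.62 and -1.05 with LNA-miR-199a-5p in bleomycin lungs. H4c12 (-0.25 and -0.48) and H4c9 (-0.45 and -0.59) had 1 sign in the second comparison, as did H4c14 (-0.23 and -0.20), whose second probe was dim. H4f16 (Hist4h4) had -0.39 on its bright probe and 0.23 on a dim one with a mean of 5.27. H2ac19 and H2ac18, near-identical neighbours named for that reason, differed by 0.47 and -0.09 with bleomycin under LNA-control. Which of these copies each probe reads was not tested, since no probe sequences were used here. The labelling kit primes from poly(A) tails, and the share of each signal that comes from tailed histone mRNA was not tested either. Called in none of the 5 comparisons were 14 members: H1f3, H1f4, H2ac21, H2aw, H2bc6, H2bc18, H2bu2, H3c4, H3c15, H4c4, H4c8, H4c12, H4c14 and H4f16.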

How the data were processed

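The authors deposited log2 intensities of 62976 Agilent probes per array, per the labels one-colour Cy3 arrays hybridised with 0.2 ug of TRIzol-extracted RNA; the submitters' processing notes name limma, and other steps are not given in the sources used here. Sorted values differed between arrays by at most 0.0974, so the columns were taken as quantile-normalised. Symbols came from the platform annotation (31465 probes with 1 symbol, 31511 with none), updated through RefSeq accessions for 29050. The probe with the highest mean stood for a gene, giving 20767 genes.

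Groups were fitted as 4 means in limma 3.58.1 (R 4.3.3; lmFit and eBayes, two-sided), tested on simulated data, with p-values Benjamini-Hochberg adjusted over all genes and called under 0.05. Members, gene lists and the alternatives that leave out replicates 1 and 4 were chosen with earlier results of these data known. Named with values were the 25 members with the smallest p in any comparison, the 5 with the highest mean, the 3 smallest p in each comparison, and list genes by smallest p. H2ac4, H1f5, H3c3, H3c14, H4c11 and H2ac6 were given array by array after their values were seen, and Slbp and Npat were named likewise. Alternatives covered each array left out, probe and symbol choice, scaling, dim genes, weights, RNA integrity, the arrays fitted and a replicate block. The replicate numbers paired the 2 PBS groups, where the 3 same-numbered pairs correlated at 0.203 to 0.619 in their deviations from group means. No member was called between those groups with or without the block, and over all genes 10 calls became 3. The block was a single effect per replicate number shared by all 4 groups, so a pairing within the PBS groups alone was not fitted. No gene coordinates are printed beyond the promoters, because the files name no build.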

Additional observations from a re-analysis of the deposited data

Results flagged for a closer look

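In 10 members the bleomycin difference itself differed between LNA-control and LNA-miR-199a-5p (limma interaction, adjusted p under 0.05). The values were -0.84 for H2bc23, -0.84 for H2ac12, -0.79 for H2bc8, -0.74 for H2bc14, -0.66 for H2bc4, -0.62 for H3c11, -0.59 for H4c17, -0.57 for H2bc1, -0.54 for H2bc22 and -0.39 for H1f2. H2bc8, H2bc14 and H2bc23 kept an adjusted p under 0.05 without replicates 1 and 4 of bleomycin with LNA-control, and the other 7 did not.

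Of 52 groups of 5 arrays examined over the 26 named members, 2 had an array far from the rest by Dixon's test, where chance gives about 1 in 20. H2bc22 read 6.25 on replicate 2 of bleomycin with LNA-control, its highest array. H3c3 read 9.56 on replicate 3 of the same group, its lowest, the array on which 28 of 49 members were lowest. The cause of either value was not tested.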

How the results depend on the processing

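No call of a named member changed sign. Over the 61 calls of single named members, alternatives kept the call in 1326 cases, lost it in 186 and reversed it in 0. Without replicates 1 and 4 of bleomycin with LNA-control, 20 members called with bleomycin under LNA-control became 12, 31 with LNA-miR-199a-5p in bleomycin lungs became 12 (median -0.25), and 10 interactions became 3 (median -0.36). Over all genes, 3644, 5176 and 1461 calls in these comparisons became 2261, 2350 and 524. With RNA integrity as a covariate the last 2 member counts were 18 and 6, where 2977 and 737 of all genes passed. Array weights gave 26 member interactions, where 3877 of all genes passed instead of 1461. They also gave 3 member calls for LNA-miR-199a-5p in PBS lungs, where 392 of all genes passed. With only the compared arrays fitted, bleomycin under LNA-miR-199a-5p called 4 members instead of 12, and 274 of all genes instead of 2789. Leaving out 1 array at a time gave 11 to 23 members for bleomycin under LNA-control, 4 to 14 under LNA-miR-199a-5p, 22 to 36 for LNA-miR-199a-5p in bleomycin lungs, 0 in PBS lungs and 4 to 26 interactions. Over all genes these fits gave 2291 to 3975, 1184 to 3525, 3772 to 5627, 2 to 121 and 634 to 2212 calls. Member medians ran from -0.42 to -0.31 for LNA-miR-199a-5p in bleomycin lungs and from -0.60 to -0.47 for the interaction. Same-numbered arrays correlated at -0.589 to 0.619 in their deviations from group means, so that replicate numbers did not pair the samples over all groups; only the PBS groups had each pair above 0.1 (0.203 to 0.619). With the replicate number as a block, 11 members were called with bleomycin under LNA-control, 4 under LNA-miR-199a-5p, 30 with LNA-miR-199a-5p in bleomycin lungs, 0 in PBS lungs and 7 in the interaction. Over all genes the block gave 2423, 663, 4533, 3 and 950 calls in these comparisons. The causes of these moves were not tested. Probe choice, symbols, the 75th percentile and a filter on dim genes left every count within 1.5 times. Limits are the 3 arrays in each PBS group, the 5 dim members, probes that may read several copies and the unstated source of replicates.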
